A study of Mus musculus with 4 samples.

Results

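Weakly enriched islands of H4K16ac, the acetylation of histone H4 at lysine 16, were described in mouse liver. An island is a stretch of the genome in which reads of the immunoprecipitated chromatin (ChIP) exceeded the input, the chromatin of the same liver sequenced without the antibody. The islands described here were chosen by their deposited read counts: an island belonged to the set if its ChIP reads divided by its input reads, with no scaling, were below 1.5. This rule found 488 of 28377 islands in the MT list and 94 of 26227 in the WT list, 582 islands of 54604 in all. WT was 1 wild type mouse and MT was 1 SIRT1 KO mouse, whose Sirt1 allele lacks a pair of exons in every tissue. Both mice were 3 months old, had a mixed genetic background of 129, FVB and Black Swiss, and gave liver collected in the morning. Each mouse gave 1 H4K16ac library and 1 input library, so nothing checks a difference between the genotypes against the spread between mice, and none was tested. In a mixed background, differences of sequence between the 2 mice cannot be told apart from an effect of the genotype.

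H4K16ac is typical of open chromatin, and Sirt1 is a deacetylase that removes it. Input reads show how much of a sequence enters the library before any antibody is used. They are raised where a sequence is present in more copies than the genome assembly holds, where reads of a repeat are placed on a single copy, and, more mildly, where open chromatin breaks more readily during sonication. A place with high input also collects ChIP reads without being acetylated, which is why the ratio of the libraries, and not the ChIP count, measures enrichment.

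ChIP reads in islands numbered 2916128 in MT and 2264125 in WT, and input reads 1347113 and 984817. In every island with input reads, which leaves out 1 in MT, the deposited fold equals its ratio times a constant of 0.947 in MT and 0.909 in WT, which corrects for library size. The raw limit of 1.5 therefore stood at a fold of 1.42 in MT and 1.36 in WT, a stricter limit for WT. Positions are counted from 1, with 1 added to the deposited start and end. They are in mm8 by the submitters' processing notes, but the build could not be checked against a genome here. No island was assigned to a gene because no annotation of that build was used here.

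The set made up 1.72% of the MT islands (95% exact binomial interval 1.57 to 1.88%) and 0.358% of the WT islands (0.290 to 0.438%). These shares are what the rule itself selects, and the intervals cover counting error only. Weak islands could enter a list only with many reads. The deposited p-values equal the Poisson tail of the ChIP reads above the scaled input. At the largest p-value in each list, an island with a ratio below 1.5 needed at least 65 input reads and 97 ChIP reads in MT, and at least 83 and 124 in WT. The islands in the set with the fewest reads had these counts. Of all islands, 79.9% in MT and 92.8% in WT had fewer input reads than that and could not belong to the set at any ratio.

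**Figure D1:**
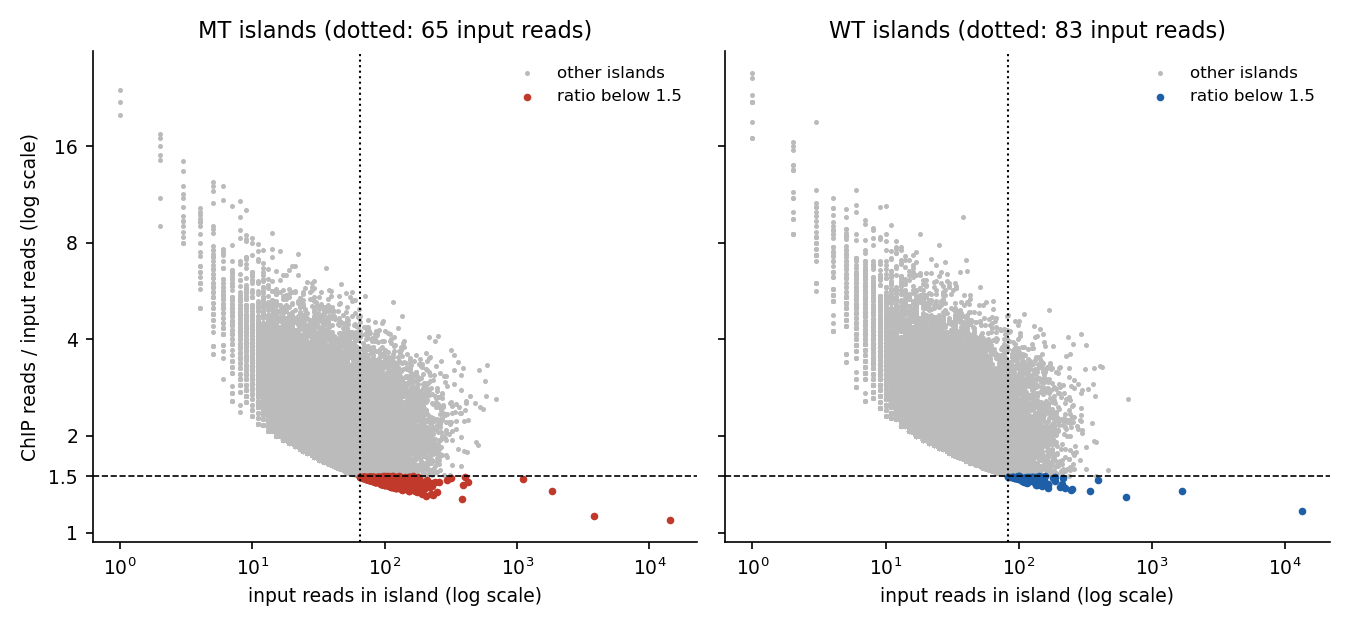
Ratio of ChIP to input reads (log scale) against input reads (log scale) for each island of the MT and WT lists, 1 point per island; 1 MT island with no input read is not drawn. Coloured points lie below the ratio of 1.5 (dashed) and start at the dotted lines, 65 input reads in MT and 83 in WT.

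The larger number in MT changed with the limit and with a minimum of input reads. MT had 5.19 times as many weak islands as WT by the raw ratio. With the same limit of 1.5 set on the deposited fold, the lists held 1392 and 887 such islands, 1.57 times as many in MT, and with a fold below 1.4 they held 386 and 217. Among islands with at least 83 input reads in either list, 338 of 3593 MT islands (9.41%) and 182 of 1900 WT islands (9.58%) had a fold below 1.4. The count of islands with that many input reads differed between the lists, and the share of weak ones among them was close. By the raw limit the shares above this minimum were 11.1% and 4.95%. The minimum of 83 is that of the raw limit in WT, and input reads above it were not matched between the lists. The comparison above this minimum was chosen after the values were seen.

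Most of the set lay close to the limit. The median ratio was 1.451 in MT (middle 50% of islands 1.42 to 1.47) and 1.467 in WT (1.44 to 1.48), where the median over the whole list was 2.13 and 2.29. Ratios below 1.4 were found in 72 MT and 10 WT islands, and ratios below 1.3 in 3 and 2. The 3 MT islands just inside the limit, chr1:107836801-107843200, chr19:55845801-55852600 and chr10:80575201-80582400, had ratios of 1.496, 1.496 and 1.497. The 3 just outside, chr1:38185601-38190400, chr10:76449001-76453200 and chr10:84439201-84444200, had a ratio of 1.5, as did 33 MT islands in all. In WT the 3 inside, chr6:145468401-145474400, chr3:108323001-108330600 and chr15:99934801-99944600, had 1.495, 1.496 and 1.497. The 3 outside, chr1:82285801-82293600, chr1:133012801-133019200 and chr15:10590401-10594800, again had 1.5, as did 7 WT islands in all. Of the 488 MT islands, 254 had a ratio of 1.45 or more, and 489 islands lay between 1.5 and 1.55. In WT, 61 of the 94 were that close on the inner side, with 162 on the outer. Counting error blurs the limit: the 95% exact interval of the ratio lay wholly below 1.5 for 4 MT and 3 WT islands.

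Weak islands were longer than the rest of their list. The median length was 5400 bp in MT (middle 50% of islands 4600 to 6800 bp) against 2400 bp for the other islands, and 6600 bp in WT (5450 to 7800 bp) against 2200 bp. Every island of the set was longer than the median of the other islands. Other islands with at least as many input reads as the lowest of the set, 5228 in MT and 1806 in WT, had a median length of 5600 and 6800 bp, slightly above that of the weak islands. These shared only the minimum of input reads, with a median of 90 reads in MT and 106 in WT against 104 and 123.5 in the weak islands. In MT 27 of the 488 and in WT 11 of the 94 were 10 kb or longer.

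Input was raised over the set, but mildly in most of it. The mean input was 15.4 reads per kb over all MT islands and 14.1 over all WT islands, and input levels are given as multiples of these means. The median level was 1.26 in MT (middle 50% of islands 1.17 to 1.35) against 0.960 for the other islands, and 1.34 in WT (1.24 to 1.49) against 0.961. The mean was exceeded by 478 of 488 weak islands in MT and by all 94 in WT, and by 42.7% and 43.4% of the other islands. Since the rule divides by the input, a raised input is partly what it selects. The other islands with as many input reads had medians of 1.08 in MT and 1.15 in WT, and 69.1% and 80.0% of them exceeded the mean. Against these, the median input per kb of the weak islands was 1.16 times as high in MT and 1.17 times in WT, and their median ChIP reads per kb were 0.836 and 0.819 times as high. Weak islands thus combined more input and fewer ChIP reads per kb than other islands above the same minimum of input reads, and both counts enter the rule.

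**Figure D2:**
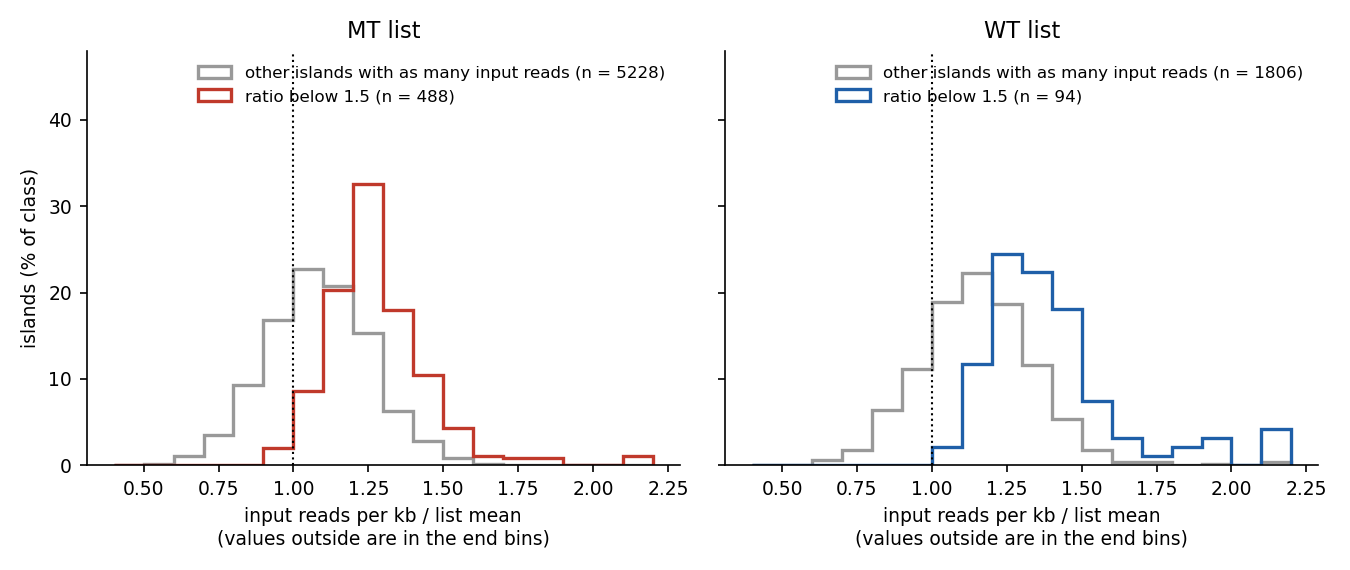
Input reads per kb over the list mean, as the percentage of islands per bin of 0.1, for weak islands (coloured) and other islands with at least as many input reads (grey), in MT and WT; the dotted line marks the list mean. The weak islands peak between 1.2 and 1.3 and the others between 1 and 1.2, and only a few weak islands reach 2 or more.

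A strongly raised input was the exception. In MT 10 weak islands had an input level below 1, 224 between 1 and 1.25, 215 between 1.25 and 1.5, 34 between 1.5 and 2, and 5 of 2 or more. In WT no weak island was below 1, and the other numbers were 27, 47, 16 and 4. The other islands held 39 with a level of 2 or more in MT and 57 in WT, but only 2 and 7 of these had as many input reads as the weak ones. The weak islands as a group held 5.73% of the input reads of the MT list on 3.47% of its covered length, and 2.85% of the input reads on 1.05% of the length in WT.

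Merging islands of both lists that overlapped by at least 1 bp gave 557 regions with a weak island. The 10 with the highest input level lay at 7 places, on chromosomes 1, 5, 7, 11 and 17. The highest was at the start of the assembled sequence of chromosome 11, chr11:3025201-3100200, which is the centromeric end since mouse autosomes have their centromere at this end. The MT island there was 74800 bp long with 15608 ChIP and 14275 input reads, an input level of 12.4 and a ratio of 1.09 (95% exact interval 1.07 to 1.12). The WT island was 75000 bp long with 15763 ChIP and 13469 input reads, an input level of 12.7 and a ratio of 1.17 (1.144 to 1.198). The mice thus had nearly the same boundaries and close input levels here, and in each list this island had the lowest ratio. It alone took 1.06% of all MT and 1.37% of all WT input reads in islands.

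The input dropped at the edge of that region. The next island, chr11:3101001-3103400 in MT, began 800 bp on with an input level of 0.541 and a ratio of 3.70, and its WT counterpart, chr11:3101801-3103400, had 0.487 and 6.55. Over the other islands within 500 kb the median input level was 0.999 in MT (n = 17) and 1.07 in WT (n = 16). The highest level among them was 1.52 in MT and 2.48 in WT. In the GRCm38 annotation, a later build, the first genes on this chromosome are Pisd-ps1, a transcribed pseudogene, and Sfi1, which codes for a protein of the centrosome. The builds differ, so the region was not assigned to either.

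A second place, on chromosome 7, had the same shape in both mice. It consisted of 3 neighbouring islands per list between positions 37884801 and 37910400. The middle one, chr7:37891201-37907800, had the same boundaries in both lists and was weak in both, with 2462 ChIP reads over 1830 of input in MT and 2280 over 1689 in WT. Its input level was 7.16 in MT and 7.21 in WT, and its ratio 1.35 in each. The islands to its left had levels of 4.87 and 4.96 and ratios of 1.61 and 1.503, and those to its right 5.92 and 6.18 with ratios of 1.97 and 1.66, so the raised input reached past the weak island into islands that the rule left out. Over 12 MT and 8 WT islands within 500 kb of the group the median level was 1.027 and 0.974.

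On chromosome 17 a short island lay at the centromeric end, chr17:3037001-3039600, again with the same boundaries in both lists. It had 271 ChIP and 188 input reads in MT, an input level of 4.70 and a ratio of 1.44 (95% exact interval 1.19 to 1.75). In WT it had 267 and 175 reads, a level of 4.77 and a ratio of 1.53 (1.26 to 1.86), just outside the limit. The intervals of the mice overlap over most of their length, so their sorting to different sides of 1.5 is within counting error. The raw limit is also stricter for WT, and the deposited folds of 1.36 in MT and 1.39 in WT were both below 1.4. In GRCm38 the first genes from this end are Gm10232 and Gm5479, both pseudogenes, Gm25909, a snoRNA, and Pisd-ps2, a transcribed pseudogene, and the region was not assigned to any of them.

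On chromosome 1 the mice differed in extent. In MT, chr1:90042601-90101800 was 59200 bp long with 4291 ChIP and 3810 input reads, an input level of 4.18 and a ratio of 1.13, and chr1:90102601-90123800 followed with 1614 and 1103 reads, 3.38 and 1.46. In WT the first island ended at 90055800, with 827 ChIP and 641 input reads, a level of 3.49 and a ratio of 1.29, and the second, from 90102601 to 90111800, had 726 and 465 reads, 3.58 and 1.56. Covered length was thus 80400 bp in MT and 22200 bp in WT, at input levels of 3.97 and 3.53. These sums cover different stretches of sequence, so the ratios of the mice were not compared over them. WT reads between its islands are not in its list, so the WT input over most of the longer MT island was not analysed here. Other islands within 500 kb had median levels of 0.952 in MT (n = 32) and 0.997 in WT (n = 26).

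**Figure D3:**
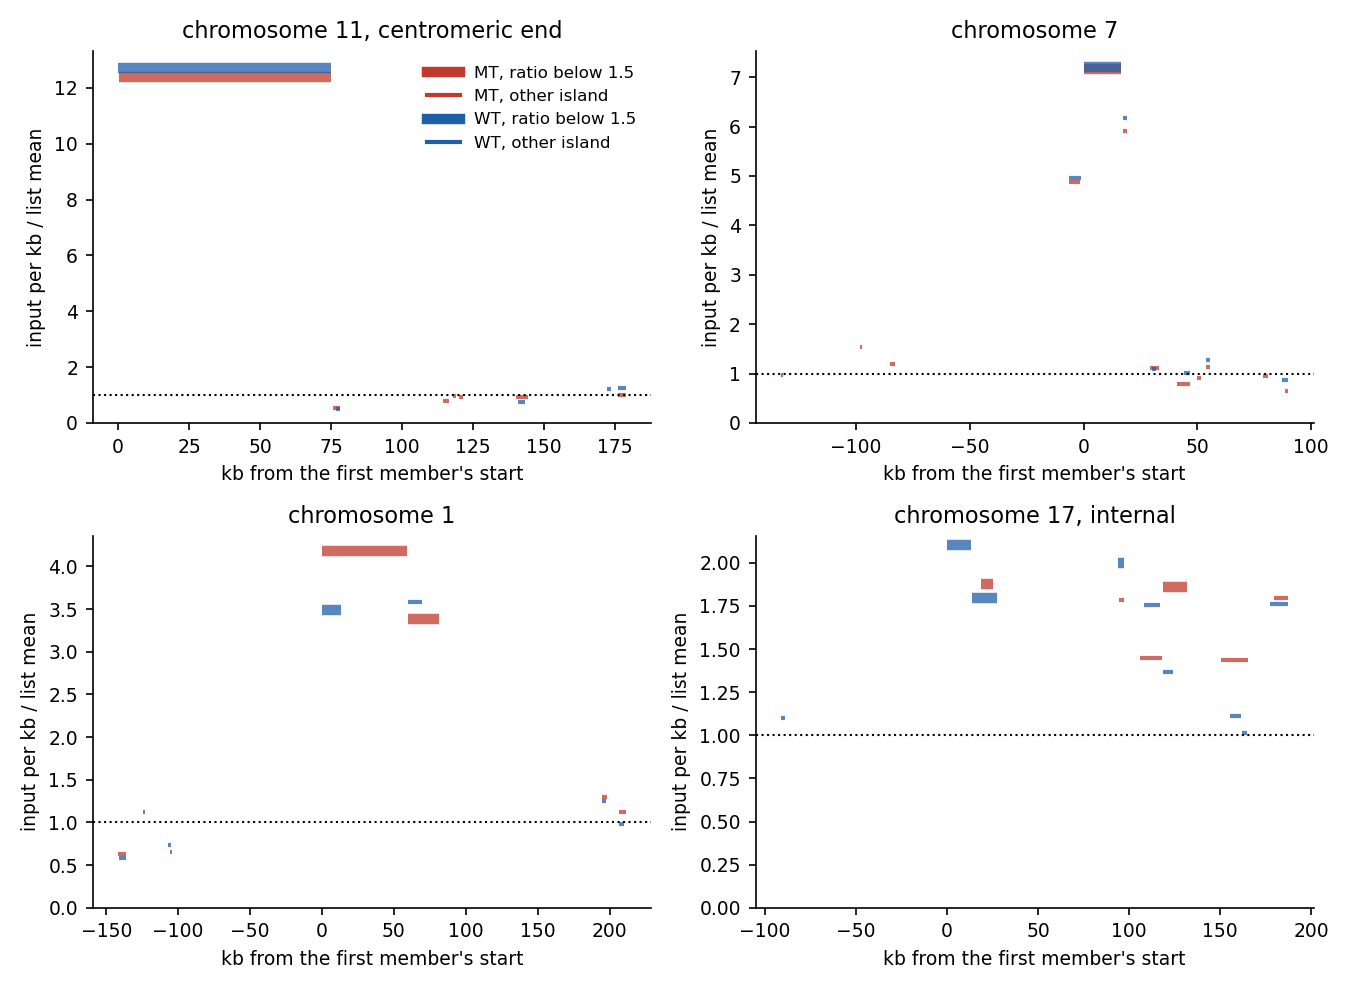
Input reads per kb over the list mean against distance in kb from the start of the first weak island, for 4 places; each bar spans 1 island, thick where its ratio was below 1.5 and thin otherwise, MT in red and WT in blue. At 3 places the input of both mice lies between 3.38 and 12.7, with at most 1.54 in the nearest islands outside, while the fourth, on chromosome 17, lies between 1.01 and 2.10.

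A broader and lower rise was found inside chromosome 17, between positions 30182401 and 30369800. WT had 8 islands there, 3 of them weak: chr17:30182401-30195600 at an input level of 2.10, chr17:30196401-30210000 at 1.80 and chr17:30276401-30279800 at 1.9998. MT had 6 islands, 2 of them weak: chr17:30201401-30208000 at 1.88 and chr17:30301001-30314400 at 1.86. Over all islands of this stretch the input level was 1.66 in MT, with every island between 1.44 and 1.88, and 1.72 in WT, with islands between 1.01 and 2.10. Islands within 500 kb on either side had median levels of 0.928 in MT (n = 5) and 1.06 in WT (n = 7). In WT 5 of the 8 islands lay between 1.75 and 2.10 and the other 3 between 1.01 and 1.37. The islands of the 2 lists cover different stretches of sequence, so the evenness of the rise was not compared between the mice. The mice shared 1 weak region here, chr17:30196401-30210000, with ratios of 1.32 in MT and 1.34 in WT.

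The remaining regions among the 10 were chr5:80491201-80498800 and chr7:101885201-101894400. The first was listed in WT alone, with 317 ChIP and 214 input reads and a level of 1.99, and neither list had another island within 500 kb. The second was weak in both mice, at levels of 1.69 in MT and 1.91 in WT and ratios of 1.44 and 1.42. The number of copies of these sequences in the 2 mice, and whether reads of repeats were placed there, was not tested.

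Only some of the longest weak islands had a strongly raised input. The 5 longest in MT were the island at the end of chromosome 11, both on chromosome 1, chr8:113579801-113600600 and chr13:63296801-63315600. The last 2 were 20800 and 18800 bp long at input levels of 1.252 and 1.465, the first near the median of the MT set and the second above its upper quartile. The 5 longest in WT were those at the end of chromosome 11, on chromosome 7 and on chromosome 1, which was 13000 bp long, and the first 2 of the internal stretch of chromosome 17, of 13200 and 13600 bp.

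Overlap of weak islands with the list of the other mouse was near that of all islands. Of the 488 in MT, 255 (52.3%, 95% exact binomial interval 47.7 to 56.8%) overlapped a WT island, where 56.5% of all MT islands did. Of the 94 in WT, 68 (72.3%, 62.2 to 81.1%) overlapped an MT island, where 64.3% of all WT islands did. Other islands with as many input reads overlapped more often, in 83.6% of cases in MT and 91.8% in WT. The 233 MT islands with no overlap lay a median of 8601 bp from the nearest WT island, and 70 of them lay within 5 kb. Their median input level was 1.23, against 1.28 for those with an overlap.

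Overlap with a weak island of the other list was found for 22 of the 488 MT islands (4.51%, 95% exact binomial interval 2.85 to 6.75%), where 0.278% of all MT islands met one, and for 22 of the 94 WT islands (23.4%, 15.3 to 33.3%), where 1.18% of all WT islands did. The shares over all islands take in shorter islands with fewer input reads. The share among other islands with as many input reads was not computed. The weak islands of both lists met in 22 regions. These 22 had median input levels of 1.448 in MT and 1.417 in WT, from 1.17 to 12.4 and from 1.24 to 12.7. All thus lay above the list mean in both mice, as did 478 of the 488 MT and all 94 WT weak islands. The counts of both mice met the rule there, so this is partly what it selects. A level of 1.5 or more was reached by 10 of them in MT and 8 in WT. One of them, chr8:22487801-22492000, had the same boundaries in both lists, input levels of 1.78 and 1.84 and ratios of 1.49 and 1.47.

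The input of the other mouse was also raised at weak islands, by less. At the 255 MT islands with an overlap, the median WT input level was 1.17 (middle 50% of islands 1.02 to 1.31), above the mean in 202 of them. It was 1.07 at other MT islands with as many input reads, and 0.981 over all overlapped MT islands. At the 68 WT islands the median MT level was 1.21 (1.11 to 1.42), above the mean in 64, against 1.11 at other WT islands with as many input reads and 0.984 over all. In 22 of the 255 and 22 of the 68 cases the island of the other mouse was itself weak. Its counts met the rule there too, so these values are partly what the rule selects. They could be read only where the other mouse had an island.

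The ratio of the other mouse stood between the limit and the typical island. It had a median of 1.85 in WT at the MT islands (middle 50% of islands 1.67 to 2.12) and of 1.70 in MT at the WT islands (1.47 to 1.92). At other islands with as many input reads it was 2.25 and 2.17. In 40 of the 255 cases the WT ratio was above the median of the WT list, and in 8 of the 68 the MT ratio was above that of the MT list. The ratio of the other mouse at weak islands was thus lower than at other islands above the same minimum of input reads, in both directions. This takes in the 22 weak islands of each list that met a weak island of the other, where the rule itself lowers the ratio.

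**Figure D4:**
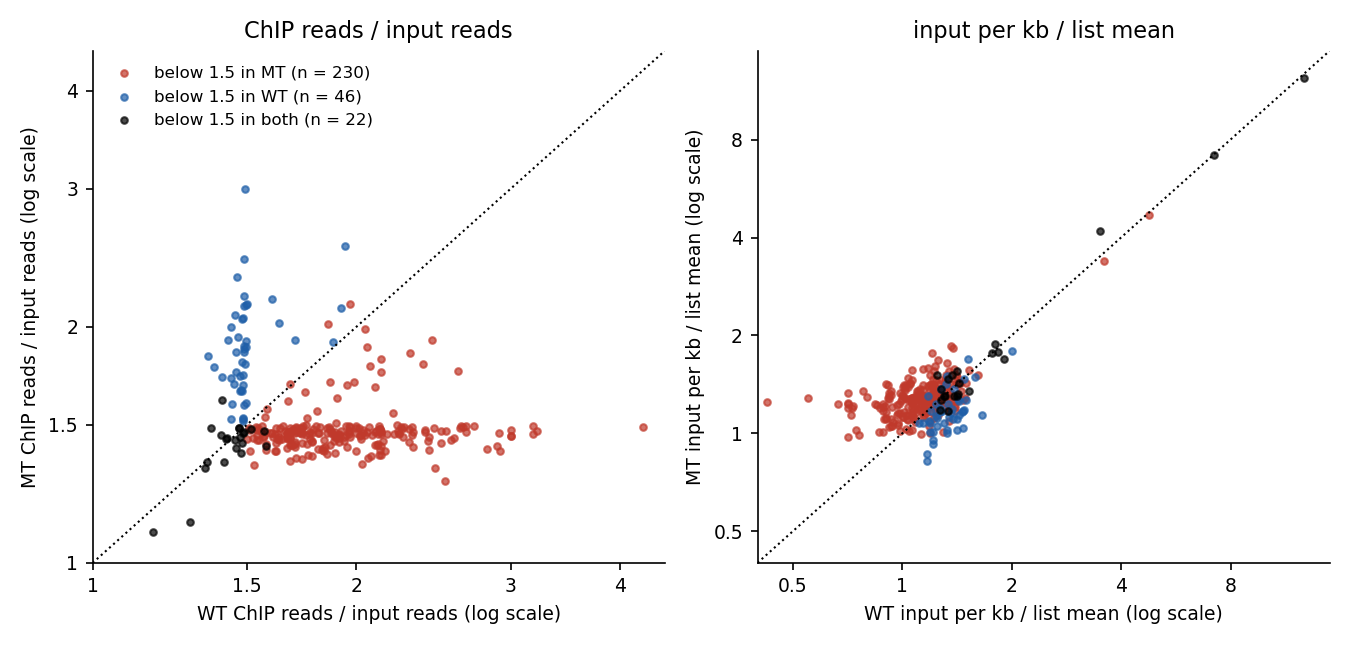
MT against WT in the 298 merged regions that held a weak island and were listed in both mice, on log scales: ratio of ChIP to input reads (left) and input reads per kb over the list mean (right), with colours for the list in which the island was weak. Ratios spread along 1.5 on either axis, and the regions with input levels above 3 lie near the dotted line of equal values.

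Where both mice were listed, the direction of the difference followed the list that chose the region. In the 230 shared regions weak in MT alone, input per kb in MT over WT, scaled for library size, had a median log2 of 0.16 (middle 50% of regions 0.03 to 0.34), and that of ChIP was -0.11. In the 46 weak in WT alone these were -0.20 and 0.18, and in the 22 weak in both -0.01 and 0.04. The rule used these counts, so the opposite signs are what it selects. Over all 298 regions the medians were 0.10 for input and -0.06 for ChIP, against 0.00 and -0.01 over all 14719 shared regions, and MT gave most of the 298. The scale for input was taken from the shared regions, which sets their input value near 0.00. With the limit of 1.5 set on the deposited fold, the medians for regions with a weak island were 0.0057 for input and -0.029 for ChIP. Covered length was also larger in MT in both sets, with medians of 6000 bp in MT and 5000 bp in WT over the 298, and of 3200 and 2600 bp over all shared regions.

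Weak islands were spread over the genome. Chromosome 7 held the most in MT, with 43 of the 488 (8.81%, where it held 5.81% of all MT islands), and with chromosome 8 the most in WT, 10 of the 94 each (10.6%, where they held 5.87% and 4.72% of all WT islands). On chromosome X, 1 of 142 MT islands and none of 126 WT islands was weak, counts too low to set against the shares of 1.72% and 0.358% over the lists. In the first 4 Mb of the chromosomes, 5 of 258 MT islands (1.94%) and 1 of 230 WT islands (0.435%) were weak, close to those shares. Joining weak islands of either list over gaps of up to 1 Mb gave 173 single islands and 139 runs, of which 61 held 3 or more. In 8 of the 139, the weak islands were an MT and a WT island of 1 merged region and not neighbours. How many runs equally many islands of any kind would form was not tested.

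The 2 runs with the most weak islands held 9 each. Their shares are given beside 1.72% and 0.358% over the lists, and the runs were picked for holding many. On chromosome 16, chr16:10485601-11583400 held 7 of 48 MT islands (14.6%) and 2 of 36 WT islands (5.56%), and the median input level of all its islands was 1.17 in MT and 1.14 in WT. On chromosome 2, chr2:29482401-33129200 held 9 of 115 MT islands (7.83%) and none of 88 in WT, at median levels of 1.12 and 1.08. The counts of a run add both lists, so a place weak in both is counted in each. The run chr11:119598601-121416000 held 8 weak islands, 5 of 92 MT islands (5.43%) and 3 of 85 WT islands (3.53%). Another 4 runs held 7: chr1:88864001-90123800 (MT 5 of 46, 10.9%, WT 2 of 33, 6.06%), chr12:111379201-113725600 (MT 7 of 56, 12.5%, WT 0 of 49), chr16:33481601-35634800 (MT 6 of 70, 8.57%, WT 1 of 79, 1.27%) and chr9:63440801-66318400 (MT 7 of 95, 7.37%, WT 0 of 77). Of these 4, the run on chromosome 1 took in the raised place described above, with a highest weak island at 4.18, and in the other three the highest weak island of either list lay between 1.37 and 1.54. Of 4 runs with 6 weak islands, chr1:92922401-93947200 came first by position, with 4 of 23 MT and 2 of 27 WT islands at median levels of 1.157 and 1.196. In these 8 runs, apart from the raised place on chromosome 1, no weak island had an input level above 1.54. The tied run chr17:29433401-30314400, which takes in the internal stretch of that chromosome, had 3 of 9 MT and 3 of 11 WT islands in the set, at levels up to 1.88 and 2.10.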

How the data were processed

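H4K16ac ChIP and input libraries of liver from 1 WT and 1 MT mouse were used through 1 deposited island list per mouse. Per the submitters' processing notes, Bowtie 0.12.7, SICER 1.03 and mm8 were used; per the titles of the lists, duplicate reads were removed, windows were 200 bp with gaps of at most 400 bp between joined ones, and the limit for islands was a false discovery rate of 0.001. The deposited counts are whole ChIP and input reads per island. The deposited p-value and false discovery rate test the ChIP reads against scaled input, and the deposited fold is their ratio after scaling for library size. The lists have no header. Total reads per library are not in the lists, so depth is known within islands alone.

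Ratios, lengths, input reads per kb, overlaps of at least 1 bp, merged regions and runs were computed in Python 3.11.15 (pandas 2.3.3, numpy 2.4.6, scipy 1.17.1), and the steps were tested on simulated data. Library size of MT over WT was taken from the density of input in shared regions (1.09) and the constants of the fold (1.05 for ChIP). With 1 library per group no test was run, and exact 95% intervals cover counting error only. The members and lists were chosen with earlier results of these data known. Named are the 10 merged regions with the highest input level, the 8 runs with the most weak islands (4 tied for the eighth), the 5 longest islands of each list, the 3 islands on each side of the limit (the first by position where tied) and the region at the end of chromosome 11; other islands named were chosen after their values were seen.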

Additional observations from a re-analysis of the deposited data

How the results depend on the processing

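Of 118 values recomputed under an alternative, 57 moved by less than counting error or the spread of their median, 59 moved by more and 2 reversed. Against other islands with as many input reads, the ratio of median lengths reversed to 0.964 in MT (2.25 as reported) and 0.971 in WT (3), and that of median input per kb became 1.16 (1.31) and 1.17 (1.399); fewer, longer islands enter by construction.

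With the fold below 1.5, 1392 MT and 887 WT islands belonged to the set, length ratios were 1.92 and 2.2, input ratios 1.28 and 1.32, input levels 1.22 and 1.251, and the other mouse's input levels 1.11 and 1.15; the log2 changes were -0.029 for ChIP and 0.0057 for input, and 380 runs formed. With a raw ratio below 1.4, 72 and 10 islands belonged, length ratios were 3.042 and 5.55, input ratios 1.34 and 1.56, input levels 1.31 and 1.497, the other mouse's input levels 1.21 and 1.88, the MT overlap 59.7%, the MT ratio at WT islands 1.35, and 9 runs formed. With a raw ratio below 1.6, 1609 and 488 belonged, length ratios were 1.83 and 2.27, input ratios 1.27 and 1.34, input levels 1.21 and 1.29, the WT input level at MT islands 1.11, the log2 input change 0.053, and 360 runs formed.

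At the stricter limit of 1e-05 on the false discovery rate, 56 and 7 belonged, length ratios were 3.07 and 4.17, input ratios 1.44 and 2.212, input levels 1.36 and 2.05, overlaps 44.6% and 42.9%, the other mouse's input levels 1.23 and 1.42, the MT ratio at WT islands 1.52, the log2 input change 0.15, and 5 runs formed. The median island as reference gave input levels of 1.29 and 1.399. Overlap of at least 50% of both islands was found for 23.8% in MT and 43.6% in WT. A fold below 1.4, chosen after seeing the data, gave 217 WT islands. Autosomes alone, leaving out the region with the most ChIP reads, inputs set equal at the median region, and gaps of 500 kb or 2 Mb moved none of the values they were run on beyond that error or, for counts, 1.5 times. Where no cause is named, it was not tested. No paired analysis was possible because each group holds 1 library. With 65 input reads in MT and 83 in WT as the fewest a weak island can have, weak enrichment of islands with fewer input reads was not detectable at this depth.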

Other observations

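Raised input was not particular to weak islands. Of all 14719 regions listed in both mice, 298 held a weak island, and of the 63 with an input level of at least 1.5 in each, 13 did. Of 12 regions listed in both mice with an input level of at least 2 in each, 5 held a weak island and 7 did not, and of the 7 with a level of at least 3 in each, 5 held one. The 7 without were chosen after their values were seen. They were the neighbours of the weak island on chromosome 7 and 5 islands of at most 800 bp. Of the short ones, chr13:94750001-94750200 had 24 ChIP reads over 7 of input in MT and 25 over 9 in WT, and chr7:18466801-18467200 had 32 over 16 in MT and 41 over 18 in WT. The other three, chr17:31431601-31432400, chr19:61254001-61254800 and chrX:71987401-71987800, had between 13 and 29 input reads in either mouse. All 5 had fewer input reads than any weak island can have, and their ratios lay between 1.86 and 3.77.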
